A study of Mus musculus with 11 samples.

Results

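T cell receptor transcripts ran over a wide range in bulk RNA sequencing of CD4+ T cells sorted from the kidney, and all 11 libraries of the series were ordered by this measure. The 11 libraries, which are the whole series, were placed from low to high by the summed CPM of Trac, Trbc1 and Trbc2, called the receptor sum. CPM are the counts of a gene per 1000000 counts of its library, with the total of each library's estimated counts as its size. Genes with at least 10 counts in at least 6 libraries were then described by how closely they followed this order, and 14502 of the 35814 symbols passed this filter after the 3 genes of the sum were set aside. The genes were grouped by their own values across the same libraries, so the size of a group and the direction of its members are a description, and no test of them was made.

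The cells came from C57BL/6 mice on day 2 after kidney ischemia-reperfusion injury (IRI), in which the renal blood supply is interrupted and then restored. All mice carried a Cre recombinase under the CD4 promoter, which is active in T cells. CD4cre mice (n = 3) carried the recombinase alone and served as controls, mice labelled CD4IKK1Δ (n = 5) also carried a floxed Chuk gene, which encodes IKK1, and mice labelled CD4NIKΔ (n = 3) a floxed Map3k14 gene, which encodes the NFκB-inducing kinase. Cells were enriched on magnetic beads and sorted, and their RNA was amplified before sequencing. All mice were young adult males, by the methods of the study, and no sham-operated mice were among the libraries.

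A conventional T cell recognizes its antigen through an αβ receptor, whose 2 chains end in constant regions encoded by Trac (α chain) and by Trbc1 or Trbc2 (β chain). The receptor itself has no signalling domain and works through the CD3 chains, the kinases Lck and Zap70 and the adaptor Lat, while CD4 binds the MHC class II molecule that presents the antigen. Only T cells transcribe these constant genes in rearranged form, so their share of the RNA can serve as a measure of T cell content.

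Trac lies on chromosome 14 of GRCm39 from 54457978 to 54461663, and the β chain genes lie close together on chromosome 6, Trbc1 from 41515152 to 41516815 and Trbc2 from 41523664 to 41525286. The first coding exons of both β genes are 375 bases long and differ at 1 base (99.7% identity). The stretches below are shown because they bear on how reads are divided between the genes, with the differing base in capitals (GRCm39, plus strand, chr6:41515371-41515450 and chr6:41523883-41523962).
Trbc1: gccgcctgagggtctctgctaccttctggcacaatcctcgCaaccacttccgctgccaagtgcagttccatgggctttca
Trbc2: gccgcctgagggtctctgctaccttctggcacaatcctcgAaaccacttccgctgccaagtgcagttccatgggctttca
Reads from this exon can seldom be assigned to 1 of the genes, so the values of Trbc1 and Trbc2 alone are uncertain, and the sum is not touched by the division between them.

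The receptor sum was lowest in the 5 libraries labelled CD4IKK1Δ, with 2.56 CPM in replicate 1, 46.0 in replicate 2, 267 in replicate 5, 273 in replicate 4 and 654 CPM in replicate 3. CD4cre libraries followed with 659.9 CPM in replicate 3, 1161 in replicate 2 and 1392 CPM in replicate 1. The libraries of CD4NIKΔ mice were highest, with 3214 CPM in replicate 1, 5247 in replicate 2 and 5734 CPM in replicate 3. The 3 genotypes thus did not overlap, and 62.0% of the variance of the log2 sum lay between genotypes. A property of the genotype and a property that goes with the receptor sum therefore cannot be told apart by the order alone, and the order of libraries within each genotype was used beside it. In bulk RNA, fewer T cells and less receptor RNA per T cell cannot be told apart either.

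The library labelled CD4IKK1Δ replicate 1 stood apart, with 41 receptor counts among 16040843, of which 38 were assigned to Trbc2, 2 to Trbc1 and 1 to Trac. The next library, CD4IKK1Δ replicate 2, had 868 receptor counts and the highest library 90324. From library to library up the order the sum grew by between 1.01 and 18.0 times, the largest step being the one from the lowest library. Trbc2 had between 1.53 and 2.59 times as many counts as Trbc1 in 10 libraries and 19.0 times as many in the lowest. Total counts ran from 15751632 to 25737046, at which 3 counts equal between 0.117 and 0.191 CPM. Such limits cover counting error only, because copies made during amplification were counted without identifiers for the original molecule.

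**Figure D1:**
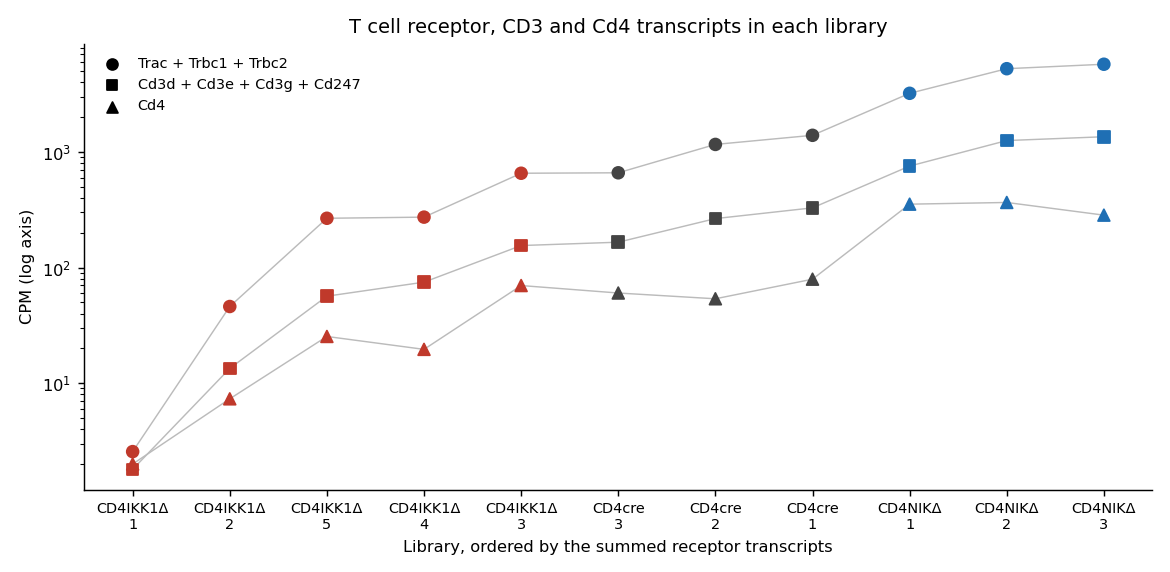
CPM (log axis) of the receptor sum (circles), of the 4 CD3 genes (squares) and of Cd4 (triangles) in each of the 11 libraries, ordered by the receptor sum, with libraries labelled CD4IKK1Δ in red, CD4cre in grey and CD4NIKΔ in blue. The receptor sum runs from 2.56 to 5734 CPM, and the CD3 sum, from 1.79 to 1353 CPM, lies in the same order of libraries.

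The summed CD3 genes, which were not part of the receptor sum, kept to its order, but Cd3g and Cd247 alone did so less closely. Cd3d, Cd3e, Cd3g and Cd247, which encode the CD3 chains, together ran from 1.79 CPM in the lowest to 1353 CPM in the highest library without a single inversion (rho 1.00 for the list with Cd4, 16 of 16 library pairs within genotypes in order). Cd3e, which reached 0.249 CPM in the lowest and 815 CPM in the highest library, was the CD3 chain with the steepest rise. Cd3g had a rho of 0.78 with 8 of the 16 pairs in order and Cd247 a rho of 0.86 with 11. By the limits given below, 3 of the 5 genes of the list followed the sum. Cd4 had 1.99, 7.31, 25.3, 19.6 and 69.8 CPM in the CD4IKK1Δ-labelled libraries (from lowest to highest sum), 60.2, 53.6 and 79.3 CPM in CD4cre and 353, 365 and 284 CPM in CD4NIKΔ. Cd4 therefore separated CD4NIKΔ libraries from all others but did not rank the CD4cre libraries as the sum did. By T cell markers alone, the label of the cells as CD4+ T cells was met in the upper libraries. In CD4IKK1Δ replicate 1, by contrast, Cd247 was at 0, Cd3e at 0.249 CPM and Trac at 1 count. The upper libraries also held other RNA. In CD4NIKΔ replicates 1 to 3 the CD3 genes with Cd4 summed to 1107, 1620 and 1637 CPM and listed neuron genes to 2934, 1749 and 1356 CPM.

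Among 5 properties of the libraries that do not describe single genes, 3 moved with the log2 sum (Pearson's r and Spearman's rho by permutation tests, 100000 permutations, two-sided, n = 11, Benjamini-Hochberg adjusted over the 5). The number of symbols detected after thinning to equal depth ran from 17018 to 18993 and rose with the sum (r = 0.89 and rho = 0.96, adjusted p = 0.0001 for both, from the smallest p the permutations can give). The percentage of counts from mitochondrially encoded genes ran from 2.75% in the lowest library to 1.65% in CD4NIKΔ replicate 2 and fell with the sum (r = −0.92, adjusted p = 0.000467 and rho = −0.84, adjusted p = 0.0034). The percentage of values that were not whole numbers, which arise where reads fit several transcripts, ran from 35.3% to 41.8% (r = 0.89, adjusted p = 0.00025 and rho = 0.95, adjusted p = 0.0002). Without the 2 libraries whose sum was farthest from the median, CD4NIKΔ replicates 2 and 3, r was 0.91, −0.97 and 0.87 in the same order. Without the 2 farthest on the log2 scale, CD4IKK1Δ replicates 1 and 2, the mitochondrial percentage no longer passed by rho (−0.70, adjusted p = 0.0721 by the same permutation test). Total counts (r = 0.29, adjusted p = 0.466 and rho = 0.12, adjusted p = 0.736) and the share of the 100 most abundant symbols (r = 0.10, adjusted p = 0.836 and rho = 0.13, adjusted p = 0.736) did not pass the test, although r of the latter was −0.84 (adjusted p = 0.014 by the same permutation test) without CD4NIKΔ replicates 2 and 3 and 0.63 (adjusted p = 0.0983, likewise by permutation) without CD4IKK1Δ replicates 1 and 2. No genotype had 6 libraries, so these relations were not tested within a genotype, and the part of complexity and of mitochondrial RNA in the results below was not tested.

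Each gene was described by the Spearman correlation (rho) of its log2 CPM, with 0.5 CPM added, with the receptor sum over 11 libraries, and by how many of the 16 pairs of libraries of the same genotype it ordered as the sum did (10 pairs in CD4IKK1Δ and 3 each in CD4cre and CD4NIKΔ). These libraries share the amplification and the sequencing, and the values are descriptions. Genes were called following with a rho of at least 0.8 and at least 12 pairs in order, opposing with a rho of −0.8 or less and at most 4 pairs in order, and not following with an absolute rho under 0.3 and between 5 and 11 pairs in order. By these limits 995 genes followed (6.86% of 14502), 941 opposed (6.49%) and 2569 did not follow the sum (17.7%).

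The median rho over all genes was −0.07, and the values piled up at both ends rather than around 0. A rho of at least 0.8 was reached by 2147 genes, of which 1152 ordered fewer than 12 pairs within genotypes, and a rho of −0.8 or less by 1793 genes, of which 852 ordered more than 4 pairs. More genes at the upper end thus missed the limit on pairs within genotypes than met it. At the limit itself stood 12 following genes with a rho of 0.80, such as Mfsd14a, and 21 opposing genes with a rho of −0.80, such as Llph, while 99 genes lay just outside at 0.79, such as Hnrnpa2b1, and 109 at −0.79, such as Mtch1. The filter on low values kept 596 genes through exactly 6 libraries and left out 612 that had 10 counts in exactly 5. Leaving out 1 CD4NIKΔ library lowered the number of opposing genes by more than 1.5 times, to 578 without replicate 1, 588 without replicate 2 and 565 without replicate 3.

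**Figure D2:**
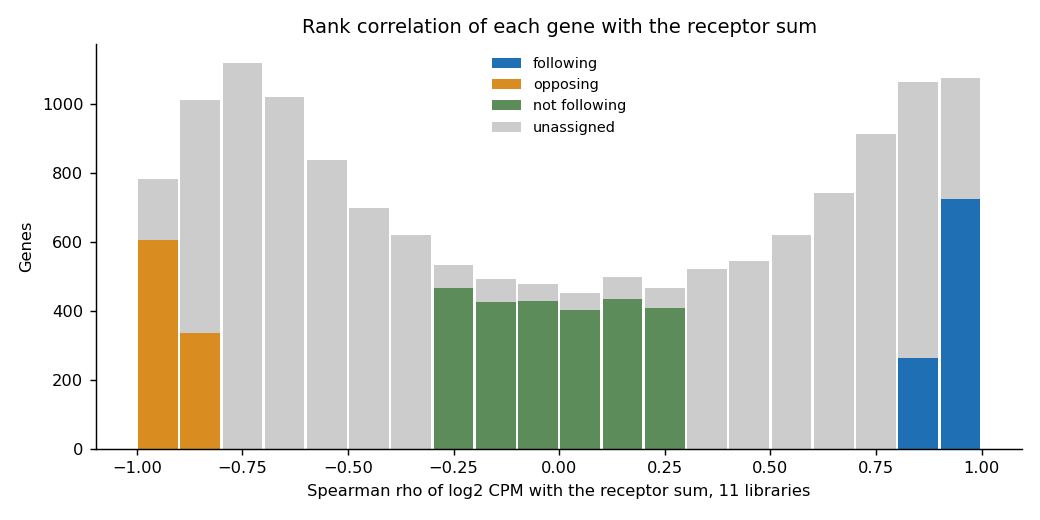
Number of genes (vertical axis) by Spearman rho of log2 CPM with the receptor sum over 11 libraries (horizontal axis, bins of 0.1) for 14502 genes, with following genes in blue, opposing genes in orange, genes not following in green and genes in none of the 3 classes in grey. The distribution has a peak toward each end and a trough near 0, and 1152 of the 2147 genes with a rho of at least 0.8 are grey because fewer than 12 library pairs within genotypes were in order.

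The classes differed in how much of the RNA they held. Following genes took 2.56% of the counts in the lowest library and 30.1% in the highest, rising at each step of the order. Opposing genes fell from 30.0% to 8.56%, while genes not following stayed between 8.22% and 9.01% in all libraries. The median slope of log2 CPM on the log2 sum was 0.39 for following genes, −0.16 for opposing genes and 0.00 for genes not following. Without the lowest library the medians were 0.52, −0.27 and −0.01. Following genes thus rose by less than the sum itself in most cases. Since CPM are shares of a fixed total, genes that take a larger share lower the share of the others, and a loss of transcripts and a dilution by others cannot be told apart for the opposing genes.

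**Figure D3:**
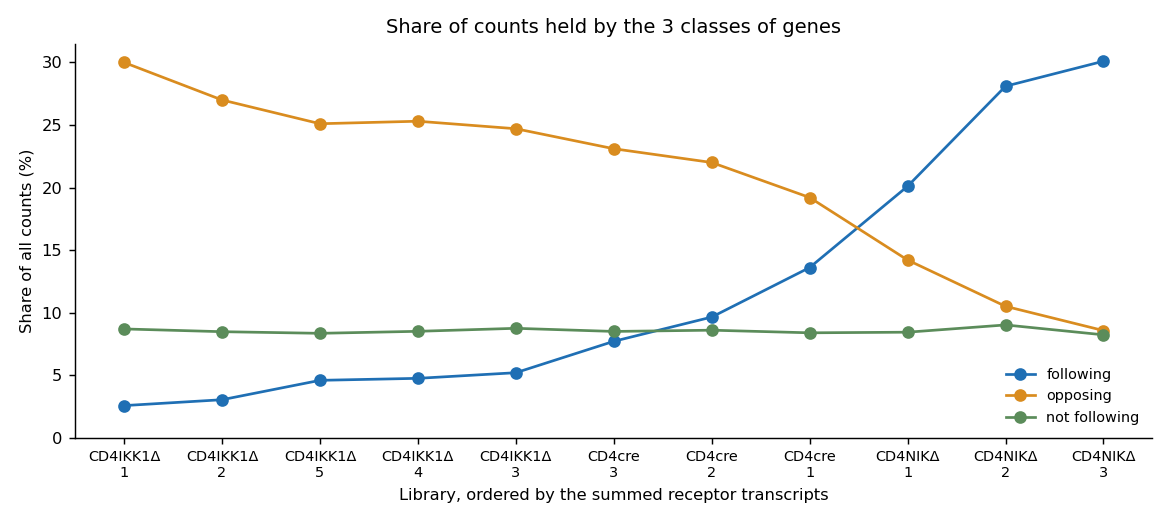
Share of all counts (vertical axis, percent, from 0) held by following (blue), opposing (orange) and not following genes (green) in each library, ordered by the receptor sum. The following genes rise from 2.56% to 30.1%, the opposing genes fall from 30.0% to 8.56% and the genes not following stay between 8.22% and 9.01%.

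The order was kept without an inversion by 8 following genes. Laptm5, which encodes a lysosomal membrane protein of blood cells, had 12.1, 74.7, 114, 140 and 308 CPM in the CD4IKK1Δ-labelled libraries (from lowest to highest sum), 361, 386 and 633 CPM in CD4cre and 1506, 1662 and 1679 CPM in CD4NIKΔ. Ucp2, a carrier of the inner mitochondrial membrane, had 13.1, 17.8, 34.6, 58.6 and 134 CPM, then 180, 185 and 303 CPM and then 888, 1311 and 1610 CPM in the same order. Il2rb, the β chain of the receptors for interleukins 2 and 15, had 1.81, 11.6, 31.7, 49.1 and 58.9 CPM, then 152, 184 and 197 CPM and then 342, 597 and 629 CPM. All of these rose in every step, with the 3 highest libraries at 12.4, 24.6 and 17.1 times the mean of the 5 lowest for Laptm5, Ucp2 and Il2rb.

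Batf encodes an AP-1 family factor needed for effector T cells, and it was at 0 in the lowest library. It had 0.265, 16.5, 19.1 and 33.6 CPM in the other libraries labelled CD4IKK1Δ, 72.3, 73.7 and 124 CPM in CD4cre and 172, 224 and 281 CPM in CD4NIKΔ. Il21r, the receptor of interleukin 21, ran from 0.652 to 228 CPM and Trim30a, an interferon-inducible member of the TRIM family, from 0.126 to 124 CPM. Cxcr3, a chemokine receptor of Th1 cells, had 0.0623, 0.53, 7.47, 11.2 and 41.0 CPM in the libraries labelled CD4IKK1Δ, 27.1, 56.6 and 84.0 CPM in CD4cre and 413, 594 and 614 CPM in CD4NIKΔ. Its only inversion lay between CD4IKK1Δ replicate 3 and CD4cre replicate 3, whose sums differed by 1.01 times. The same pair accounted for no inversion in Rrad, a small GTPase of the Ras superfamily, which instead had 273 CPM in CD4cre replicate 1 and 183 CPM in CD4NIKΔ replicate 1.

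A perfect rank does not mean a large change. Frg1, which encodes a nuclear protein, had the order without an inversion but ran from 115 to 240 CPM, a 2.09-fold range, against a 2243-fold range of the sum. Without the lowest library the sum ran from 46.0 to 5734 CPM. Whamm, a factor that promotes actin assembly, ran from 3.74 to 46.6 CPM. Slopes on the log2 sum were 0.09 for Frg1, 0.34 for Whamm, 0.67 for Laptm5, 0.94 for Batf and 1.03 for Cxcr3. Without the lowest library they were 0.14, 0.41, 0.73, 1.12 and 1.37 in the same order.

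Promoters of following and opposing genes were compared as sequence. A canonical start site in the GENCODE annotation of GRCm39 was found for 13377 of the genes, and windows from 250 bases before to 50 bases after it were searched on both strands for 7 motifs. The ETS core AGGAAG was in 41.1% of 945 following promoters, 30.1% of 903 opposing promoters, 33.2% of 2272 promoters of genes not following and 33.7% of all 13377. The interferon response element ISRE was in 5.08%, 3.10%, 2.51% and 3.50%, the RUNX core TGTGGT in 15.8%, 14.5%, 13.2% and 13.6%, and TATAAA in 11.2%, 7.09%, 8.23% and 8.63% in the same order. The GC box GGGCGG was in 52.9%, 52.8%, 55.0% and 55.2%, the palindromic NRF1 site in 1.16%, 2.21%, 1.80% and 1.66%, and the cAMP response element TGACGTCA in 3.07%, 2.10%, 3.70% and 3.11%. The median GC content was 57.0% in both following and opposing promoters and 57.7% in all. These shares describe letters in a window and were not tested, and a match is not evidence of a bound factor.

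The 150 bases before the start site are printed for 3 following and 3 opposing genes, chosen after their values were seen, so that the sequences behind genes at both ends of the order can be read side by side. Capitals mark matches to the 7 motifs, and each sequence is given 5′ to 3′ on the gene's own strand.
Batf, chr12:85733273-85733422 (plus strand): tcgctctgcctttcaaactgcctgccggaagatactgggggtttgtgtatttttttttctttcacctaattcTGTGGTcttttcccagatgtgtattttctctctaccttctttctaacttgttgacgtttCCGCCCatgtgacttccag
Cxcr3, chrX:100777876-100778025 (minus strand): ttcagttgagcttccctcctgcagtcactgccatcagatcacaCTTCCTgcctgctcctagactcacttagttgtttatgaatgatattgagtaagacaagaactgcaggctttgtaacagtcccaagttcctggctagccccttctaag
Trim30a, chr7:104114408-104114557 (minus strand): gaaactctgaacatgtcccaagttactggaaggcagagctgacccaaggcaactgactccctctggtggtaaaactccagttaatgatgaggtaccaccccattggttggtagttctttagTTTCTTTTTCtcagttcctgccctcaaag
Cisd1, chr10:71180785-71180934 (minus strand): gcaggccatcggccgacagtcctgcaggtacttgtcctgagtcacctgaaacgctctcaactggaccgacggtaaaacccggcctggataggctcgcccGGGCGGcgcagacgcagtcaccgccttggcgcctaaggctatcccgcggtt
Ndufb5, chr3:32790989-32791138 (plus strand): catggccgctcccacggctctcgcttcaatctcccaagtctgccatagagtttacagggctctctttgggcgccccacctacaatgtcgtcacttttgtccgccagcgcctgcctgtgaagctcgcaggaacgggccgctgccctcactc
Gap43, chr16:42161087-42161236 (minus strand): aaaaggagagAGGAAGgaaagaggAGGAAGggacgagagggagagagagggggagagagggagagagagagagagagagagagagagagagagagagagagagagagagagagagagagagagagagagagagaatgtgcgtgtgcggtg
Batf held a RUNX core and a GC box, Cxcr3 an ETS core and Trim30a an interferon response element, while Cisd1 held a GC box, Gap43 2 ETS cores and Ndufb5 none of the 7.

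Genes of the receptor's signalling chain rose with the sum as a group. Of 20 measured genes, 14 followed and none opposed, with a median rho of 0.95 against −0.07 over all genes. Lat, the adaptor that gathers signalling proteins at the membrane, ran from 0.187 CPM in the lowest library over 263 CPM in CD4cre replicate 2 to 851 CPM in the highest. Icos, a costimulatory receptor, was at 0 in the lowest library and reached 480 CPM in the highest, with 1 of the 16 pairs within genotypes out of order. Lck had 1.87, 40.8, 33.8, 84.0 and 113 CPM in the libraries labelled CD4IKK1Δ, 158, 316 and 211 CPM in CD4cre and 1475, 1150 and 1083 CPM in CD4NIKΔ. It rose between the genotypes (rho 0.95), but with 11 pairs in order within them it was not among the following genes.

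Other genes known from T cells were more mixed. Of 18 measured, 11 followed, the median rho was 0.93, and the GIMAP GTPases of lymphocytes stood out, with all 8 measured members following (the family was chosen after its values were seen). Gimap4 had 0.374 CPM in the lowest and 2733 CPM in the highest library. Thy1, which is a T cell marker in mice but is also abundant on neurons, ran the other way, from 197 CPM in the lowest to 95.2 CPM in the highest library (rho −0.84, 5 pairs in order). Satb1, a chromatin organizer of thymocytes, changed from 44.2 to 428 CPM and Bcl11b, a factor of T cell commitment, from 17.7 to 66.5 CPM, both from levels well above those of the receptor genes in the lowest library.

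Genes of all leukocytes gave the same picture as those of T cells. Of 21 measured, 15 followed and none opposed (median rho 0.95). Ptprc, which encodes CD45, had 18.5, 28.7, 92.9, 83.8 and 77.8 CPM in the libraries labelled CD4IKK1Δ, 130, 256 and 249 CPM in CD4cre and 915, 843 and 1083 CPM in CD4NIKΔ. Lcp1, an actin-bundling protein of leukocytes, ran from 3.27 to 1201 CPM. The libraries low in receptor RNA were therefore low in the RNA of leukocytes in general, including CD45.

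Effector genes were read along the same order. Of 12 Th1 genes 6 followed (median rho 0.93), among them Ifng, which encodes interferon-γ, at 0, 2.01, 55.8, 37.0 and 32.7 CPM in the libraries labelled CD4IKK1Δ, 115, 142 and 367 CPM in CD4cre and 850, 735 and 961 CPM in CD4NIKΔ. Tbx21, the Th1 lineage factor, ran from 0.748 to 211 CPM and followed as well. Of 10 measured Th17 genes 4 followed (median rho 0.83), among them Il17a, at 0, 0, 0.709, 0.0517 and 1.15 CPM, then 4.52, 10.7 and 25.8 CPM and then 11.6, 34.5 and 18.3 CPM. Il17f, which encodes a related cytokine, did not reach 10 counts in 6 libraries and was not described. Ifng separated the 3 genotypes without overlap, as the receptor sum did.

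Regulatory and memory genes moved in the same direction. Of 12 regulatory T cell genes 7 followed (median rho 0.91), among them Ctla4 at 0.0623 CPM in the lowest and 293 CPM in the highest library. Foxp3, the lineage factor, had a rho of 0.86 with 10 pairs in order and was not among them. Of 10 naive and memory genes 4 followed (median rho 0.92). Cytotoxic genes had 4 followers of 11 measured (median rho 0.90) and γδ T cell constant genes 3 of 3. The γδ genes Trgc1, Trgc2 and Trgc4 reached 68.8, 91.8 and 83.4 CPM in the highest library and share sequence with one another, so their separate values are uncertain. All of these lists had medians far above the −0.07 of all genes.

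Genes of innate and other blood cells were less even along the order. Of 18 measured macrophage and monocyte genes 1 followed, with a median rho of 0.73, and their summed level ran from 1198 CPM in the lowest library to 4502 CPM in CD4cre replicate 1 and 2324 CPM in the highest. C1qb, a complement component of macrophages, had 26.9, 28.4, 41.1, 92.1 and 48.4 CPM in the libraries labelled CD4IKK1Δ, 279, 122 and 603 CPM in CD4cre and 202, 164 and 145 CPM in CD4NIKΔ, so its peak lay in the middle of the order. Csf1r and Apoe peaked in CD4cre as well, at 42.4 and 1561 CPM in replicate 1, whereas Adgre1, which encodes F4/80, was at or under 3.17 CPM in all libraries. Of the 18 genes 10 had their highest library in CD4cre, 7 in CD4NIKΔ and 1 among those labelled CD4IKK1Δ. Ccr2, a chemokine receptor of monocytes and of effector T cells, was the follower and reached 171 CPM in CD4NIKΔ replicate 1, Ctss, a lysosomal protease, reached 389 CPM there, and Cd68 ran from 24.3 CPM in the lowest to 5.30 CPM in the highest library (rho −0.82). Apoe and Ctsb made up most of the summed level in the lowest library, with 608 and 472 of 1198 CPM. Of the 13 dendritic cell and MHC class II genes measured 2 followed (median rho 0.85), H2-Ab1 and Cd74. Their part in the genes that peaked in CD4cre was not tested.

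Kidney tubule genes were low in all libraries. Of 25 listed genes 14 were measured and 1, Ass1, followed, with a median rho of 0.56 and a summed level between 71.0 and 250 CPM. Umod, which marks the thick ascending limb, peaked at 43.1 CPM in CD4cre replicate 2, and Havcr1, the tubular injury marker KIM-1, stayed at or under 1.65 CPM in all libraries. Ass1, which makes argininosuccinate, is also induced in activated immune cells.

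Immediate early genes and heat shock genes, which answer to cell handling as well as to activation, were among the most abundant followers. Of 14 measured immediate early genes 10 followed (median rho 0.91), and their summed level ran from 716 CPM in the lowest to 27198 CPM in the highest library. Junb, an AP-1 factor, had 98.5, 156, 699, 855 and 651 CPM in the libraries labelled CD4IKK1Δ, 2526, 2946 and 6190 CPM in CD4cre and 3820, 8255 and 7829 CPM in CD4NIKΔ. Of 11 heat shock genes 4 followed (median rho 0.75). Hspa1a, an inducible chaperone, ran from 10.9 to 28705 CPM and its near-identical neighbour Hspa1b from 8.71 to 27060 CPM, so their separate values are uncertain. Constitutive chaperones did not take part to this extent, as Hsp90ab1 stayed between 472 and 966 CPM. The part of tissue handling in the levels of these genes was not tested.

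Genes of the NFκB pathway, to which both targeted kinases belong, also rose. Of 17 measured genes 10 followed and none opposed (median rho 0.92), and their summed level ran from 190 CPM in the lowest to 6050 CPM in CD4NIKΔ replicate 2. Nfkbia, the inhibitor IκBα and itself an NFκB target, had 79.7, 136, 268, 482 and 792 CPM in the libraries labelled CD4IKK1Δ, 1334, 1749 and 2175 CPM in CD4cre and 1955, 4270 and 3217 CPM in CD4NIKΔ. Nfkb2, the precursor processed by the non-canonical pathway, ran from 1.97 to 219 CPM. Interferon-stimulated genes had 8 followers of 13 measured (median rho 0.89). Among families chosen after their values were seen, 11 of 13 measured MHC class I genes followed (median rho 0.97), whose members share much sequence.

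By CPM alone, the targeted genes did not mark their groups. Chuk (chromosome 19, 44061769 to 44095935, GRCm39) had 16.1, 21.5, 27.8, 15.9 and 22.6 CPM in the CD4IKK1Δ-labelled libraries (from lowest to highest sum), 17.1, 34.8 and 16.8 CPM in CD4cre and 22.4, 37.9 and 33.6 CPM in CD4NIKΔ. Its rho was 0.55 with 9 pairs in order, and the libraries labelled CD4IKK1Δ overlapped with CD4cre. Map3k14 (chromosome 11, 103110577 to 103158298) had 1.81, 4.98, 8.03, 9.61 and 6.25 CPM in the libraries labelled CD4IKK1Δ, 15.4, 20.6 and 19.7 CPM in CD4cre and 12.4, 29.4 and 21.4 CPM in the libraries labelled CD4NIKΔ. It was among the following genes, with a rho of 0.90 and 12 pairs in order. Its CPM were not low in CD4NIKΔ, in which it was targeted. The receptor sum was 3214 to 5734 CPM there and 659.9 to 1392 CPM in CD4cre. Relative to the sum, Map3k14 was thus lower in CD4NIKΔ than in CD4cre. The part of the deletion in this was not tested. The counts are sums over each gene and do not resolve the deleted exons.

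**Figure D4:**
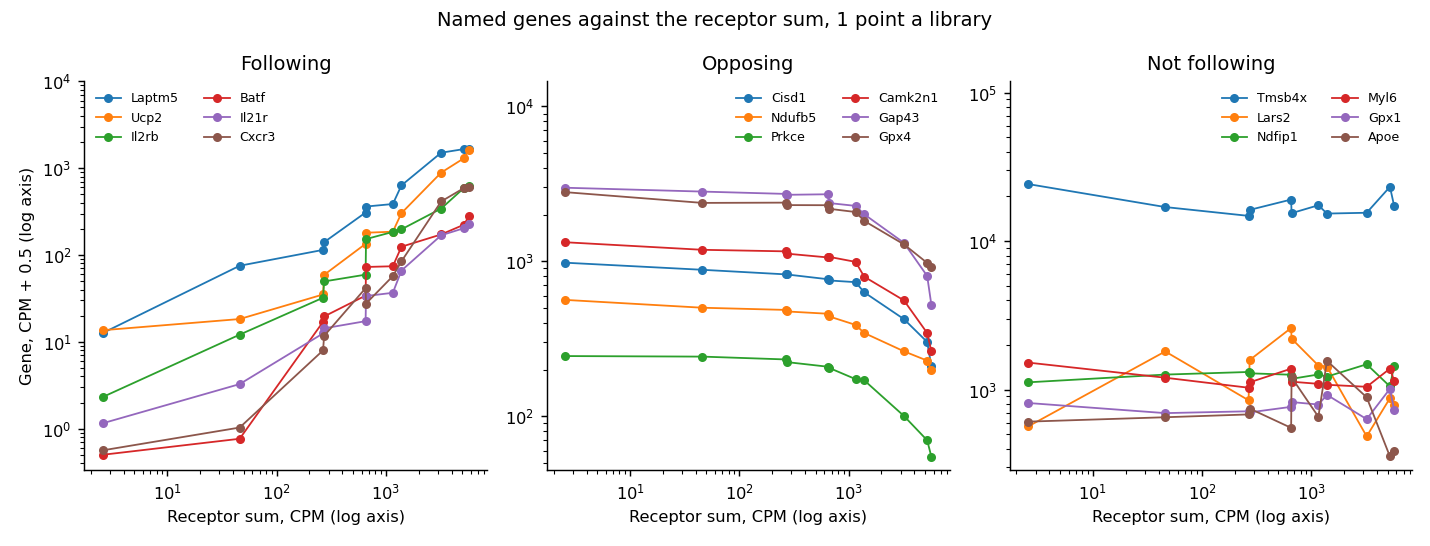
CPM with 0.5 added (vertical axis, log) against the receptor sum in CPM (horizontal axis, log) for 6 following, 6 opposing and 6 not following genes, 1 point for each of 11 libraries joined by lines. Following genes climb over the whole range, such as Laptm5 from 12.1 to 1679 CPM, opposing genes fall mainly at the upper end, such as Cisd1 from 979 to 210 CPM, and genes not following have no common direction.

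Genes that opposed the sum fell by less than the followers rose. Cisd1, an iron-sulfur protein of the outer mitochondrial membrane, had 979, 881, 823, 822 and 765 CPM in the libraries labelled CD4IKK1Δ, 752, 733 and 630 CPM in CD4cre and 423, 301 and 210 CPM in CD4NIKΔ. Ndufb5, an accessory subunit of respiratory complex I, had 563, 501, 485, 474 and 458 CPM, then 441, 388 and 344 CPM and then 262, 228 and 197 CPM. Prkce, which encodes protein kinase C epsilon, had 244, 242, 232, 223 and 208 CPM, then 205, 173 and 170 CPM and then 99.9, 69.4 and 54.3 CPM. All 3 fell at every step of the order, as did Sap18b, a copy of Sap18 whose reads may be shared with its parent. The 4 lowest genes by rho were thus ranked without an inversion, and their ranges were 4.66-fold for Cisd1, 2.85-fold for Ndufb5, 4.48-fold for Prkce and 1.78-fold for Sap18b.

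Several of the lowest by rho are known from neurons. Gap43, a protein of growing axons, had between 2687 and 2985 CPM in the libraries labelled CD4IKK1Δ, between 2011 and 2378 CPM in CD4cre and 1316, 804 and 523 CPM in CD4NIKΔ. Camk2n1, an inhibitor of calmodulin kinase II, ran from 1327 to 262 CPM. Gpx4, which removes lipid peroxides and is expressed widely, ran from 2795 to 916 CPM, Gabarapl2, an autophagy protein, from 1401 to 650 CPM and Atp2b1, a plasma membrane calcium pump, from 1470 to 509 CPM.

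Markers of neurons were present in all libraries and lowest where the sum was highest. All 18 listed genes were measured, all 18 had a rho under 0, 9 opposed and none followed, with a median rho of −0.84 against −0.07 over all genes. Their summed level was 6281, 6681, 6398, 5975 and 5913 CPM in the libraries labelled CD4IKK1Δ, 5683, 5278 and 4458 CPM in CD4cre and 2934, 1749 and 1356 CPM in CD4NIKΔ. Nefl, a neurofilament subunit, reached 1107 CPM in CD4IKK1Δ replicate 2 and was at 217 CPM in the highest library. Slc17a7, a vesicular glutamate transporter, reached 785 CPM and fell to 139 CPM. Camk2a stayed at or under 4.61 CPM, so not all defining markers were present. In the library with 41 receptor counts these markers were therefore at 6281 CPM, against 29.2 CPM for the 20 signalling genes of T cells.

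Glial genes had the same direction with less order. Of 13 measured, 1 opposed, 1 followed and 12 had a rho under 0 (median −0.66). Mbp, the myelin basic protein, was between 342 and 567 CPM in the libraries labelled CD4IKK1Δ and at 103 CPM in the highest library, while Gfap was at or under 4.03 CPM in all. Cnp, the follower, rose from 27.6 to 262 CPM. The source of the neuronal and glial transcripts and their part in the opposing genes were not tested.

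Families chosen after their values were seen extended both ends. Of 48 measured complex I subunits (Nduf) 27 opposed and none followed (median rho −0.93), and their summed level ran from 16501 to 5434 CPM. Nuclear complex IV subunits had 8 opposing of 14, ATP synthase subunits 9 of 17 and mitochondrial ribosomal proteins 15 of 77. Glutamate and GABA-A receptors, which mediate synaptic transmission, had 11 opposing of 35 and potassium channels 7 of 68. The mitochondrially encoded genes had a median rho of −0.70, with 1 of 13 opposing. Zinc finger proteins (Zfp), with 11 opposing and 12 following of 346 (median rho 0.03), had smaller shares in both classes than the 6.49% and 6.86% over all genes.

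**Figure D5:**
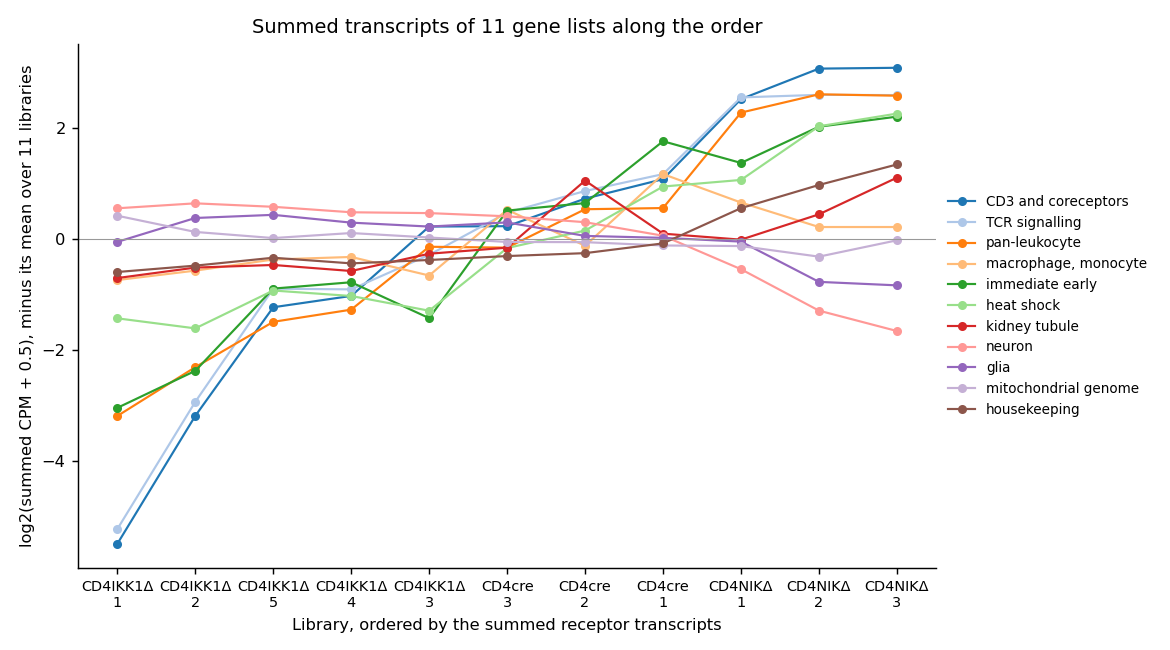
Log2 of summed CPM with 0.5 added, minus its mean over the 11 libraries (vertical axis), for 11 gene lists in the libraries ordered by the receptor sum. CD3 and coreceptor, signalling and pan-leukocyte lists rise by over 5 log2 units from the lowest to the highest library, immediate early genes and heat shock genes rise with them, the neuron list falls from 6281 to 1356 CPM, and macrophage genes peak in CD4cre replicate 1.

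The most abundant of the genes that did not follow had varied roles. Tmsb4x, which encodes the actin-binding thymosin β4, had the highest mean level of the class, 17768 CPM, with 24224 CPM in the lowest library, 17271 CPM in the highest and 14789 CPM at the minimum. Myl6, a myosin light chain, ran between 1029 and 1520 CPM, Prkar1a, a regulatory subunit of protein kinase A, between 1024 and 1278 CPM and Ndfip1, an adaptor of ubiquitin ligases, between 1050 and 1481 CPM. These 3 stayed within 1.5-fold over a range of the sum of 2243-fold. That range rests on the lowest library, without which the sum ran from 46.0 to 5734 CPM. Leaving out each library in turn moved rho beyond the limit of 0.3 at 1 end for all 4, with ranges of −0.20 to 0.31 for Tmsb4x, −0.39 to 0.12 for Myl6, 0.10 to 0.43 for Prkar1a and −0.07 to 0.47 for Ndfip1.

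A rho near 0 did not always mean an even level. Lars2, which encodes the mitochondrial leucyl-tRNA synthetase, had 564, 1807, 847, 1581 and 2600 CPM in the libraries labelled CD4IKK1Δ, 2204, 1452 and 1428 CPM in CD4cre and 484, 875 and 791 CPM in CD4NIKΔ. Apoe, an apolipoprotein made by macrophages and glia, was at 1208 and 1561 CPM in CD4cre replicates 3 and 1 and between 354 and 887 CPM in all other libraries. Lars2 thus varied 5.38-fold and Apoe 4.41-fold without following the sum, although without CD4IKK1Δ replicate 1 the rho of Lars2 went from −0.25 to −0.58, outside the limit of 0.3. Housekeeping genes as a list had 3 following, 2 opposing and 1 not following of 18 measured (median rho 0.31).

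CD4IKK1Δ replicate 3 and CD4cre replicate 3 had nearly the same sum (653.9 and 659.9 CPM, a ratio of 0.991) and so allowed genotypes to be set side by side at like receptor content. With 1 library each there was no replicate check. Of 14277 genes, 1190 were over 2-fold higher and 2161 over 2-fold lower in the library labelled CD4IKK1Δ, 23.5% in all. Libraries of 1 genotype with a like sum, CD4IKK1Δ replicates 5 and 4 (ratio 0.978), differed over 2-fold in 21.8% of 14206 genes, CD4cre replicates 2 and 1 in 19.3% and CD4NIKΔ replicates 2 and 3 in 10.5%. The share between genotypes was thus above that of all 3 pairs within a genotype, by little for CD4IKK1Δ and by more than 2-fold for CD4NIKΔ.

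The lists differed in this pair. CD3 genes with Cd4 had 225 CPM in the library labelled CD4IKK1Δ and 226 CPM in that of CD4cre, and pan-leukocyte genes 2345 and 2319 CPM, ratios of 0.995 and 1.01. Signalling genes of T cells were at 911 and 1544 CPM (0.59) and other T cell genes at 565 and 1042 CPM (0.542), so a like receptor sum did not go with like levels of all T cell genes. Naive and memory genes were at 134 and 919 CPM (0.145), immediate early genes at 2196 and 8414 CPM (0.261), heat shock genes at 5380 and 11765 CPM (0.457) and macrophage genes at 1268 and 2881 CPM (0.44). Klf2, a factor of naive T cells, had 45.8 CPM in the library labelled CD4IKK1Δ and 603 CPM in that of CD4cre, while its 2 fellow libraries CD4IKK1Δ replicates 5 and 4 had 288 and 265 CPM at a lower sum. Interferon-stimulated genes were higher in the library labelled CD4IKK1Δ, 227 against 139 CPM (1.64), and NFκB genes lower, 1131 against 1861 CPM (0.608). In the pair of CD4IKK1Δ replicates 5 and 4 the same ratios were 1.01 for signalling genes, 1.29 for other T cell genes, 1.18 for naive and memory genes, 0.924 for immediate early genes, 1.07 for heat shock genes, 0.969 for macrophage genes, 1.32 for interferon-stimulated genes and 0.707 for NFκB genes.

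Genotypes were then compared over all libraries with the log2 sum as a covariate, by edgeR's quasi-likelihood test with Benjamini-Hochberg adjustment (FDR) over 14502 genes, calling an FDR under 0.05 and a difference over 2-fold. CD4IKK1Δ against CD4cre gave 0 genes (0%), with 925 genes at an unadjusted p under 0.05, a smallest FDR of 0.252 and 135 genes by DESeq2 with the same covariate. Genotype alone gave 134 genes (0.924%), all lower in the libraries labelled CD4IKK1Δ, of which 60 were following and none opposing genes. Following genes were 6.86% of all genes. All libraries labelled CD4IKK1Δ lay below all CD4cre libraries in the sum, so the classes favour this direction by definition. The overlap is thus not a result about the genotype. The covariate and the genotype share most of their range, so that a fit with both cannot attribute to either what they share.

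CD4NIKΔ against CD4cre gave 1541 genes with the covariate (10.6%), 649 higher and 892 lower in CD4NIKΔ, and 2156 by genotype alone (14.9%). Hsd11b1, which regenerates glucocorticoids, had 220, 215 and 238 CPM in CD4NIKΔ replicates 1 to 3, 28.0, 22.6 and 12.5 CPM in CD4cre and between 7.96 and 16.7 CPM in the libraries labelled CD4IKK1Δ (log2 difference 3.40, SE 0.34, FDR 0.00282 by edgeR). G3bp1, a stress granule protein, had 336, 412 and 382 CPM against 131, 128 and 109 CPM (1.66, SE 0.16, FDR 0.00282 by edgeR), and Hopx, Itga4 and F2r were also among the 5 of lowest FDR that were higher. Ap1b1, an adaptor subunit of vesicle coats, was lower, with 20.3, 14.2 and 14.7 CPM against 63.1, 80.6 and 87.2 CPM (−2.18, SE 0.22, FDR 0.00282 by edgeR), as was Pink1, a kinase of mitochondrial quality control, with 18.4, 19.7 and 16.5 CPM against 79.6, 81.9 and 79.7 CPM (−1.98, SE 0.22, FDR 0.00379 by edgeR). Map9, Nckap1 and Pde2a were the others of lowest FDR that were lower. The groups did not overlap in any of these 4 genes given with values. The 4 were chosen for their low FDR, so this comes with the choice and is not separate support.

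Of all genes, 4.48% were higher and 6.15% lower in CD4NIKΔ with the covariate in the fit. Among the lists, 13 of 18 neuron genes, 3 of 13 glial genes and 2 of 8 endothelial genes were lower. Higher were 5 of 12 Th1 genes, 4 of 13 interferon-stimulated genes, 4 of 13 cell cycle genes, 4 of 21 pan-leukocyte genes, 3 of 20 signalling genes and 2 of 10 Th17 genes, and the other lists had at most 2 calls in either direction. The median log2 difference over all genes was −0.13 with TMM factors, −0.04 with RLE factors, −0.28 with upper-quartile factors and −0.30 with column totals, and the share of calls that were higher was 42.1%, 53.9%, 25.0% and 25.0%. The number of calls rested on single libraries, with 16 genes called without CD4IKK1Δ replicate 1, 459 without CD4cre replicate 3, 643 without CD4cre replicate 2, 609 without CD4NIKΔ replicate 3 and 761 without CD4NIKΔ replicate 2. Without CD4IKK1Δ replicate 1, log2 differences were 2.95 for Hsd11b1 (FDR 0.0181 by edgeR), 1.63 for G3bp1 (FDR 0.0217), −2.17 for Ap1b1 (FDR 0.033) and −2.28 for Pink1 (FDR 0.0181). Without both libraries of lowest sum, CD4IKK1Δ replicates 1 and 2, edgeR called 0 genes in this comparison, these 4 included (978 at an unadjusted p under 0.05).

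CD4IKK1Δ against CD4NIKΔ gave 1904 genes with the covariate (13.1%), 1043 higher and 861 lower in the libraries labelled CD4IKK1Δ, and 5294 by genotype alone (36.5%). With the CD3 sum as covariate instead, edgeR called 693 genes, 326 higher and 367 lower. Tap2, a peptide transporter for MHC class I, had 2.93, 5.46, 24.9, 14.6 and 16.9 CPM in CD4IKK1Δ replicates 1 to 5 and 361, 415 and 341 CPM in CD4NIKΔ (−3.09, SE 0.30, FDR 0.0048 by edgeR). Smpdl3a, a lysosomal phosphodiesterase, had between 6.11 and 13.9 CPM and 133, 139 and 202 CPM (−3.42, SE 0.39, FDR 0.0048 by edgeR). Ap1b1 and Pink1 were higher in the libraries labelled CD4IKK1Δ, with log2 differences of 2.51 and 2.31. Both comparisons with CD4NIKΔ share the same 3 libraries, so these values are not a second observation. Without CD4IKK1Δ replicate 1 no gene was called by edgeR (2084 at an unadjusted p under 0.05), nor without replicates 1 and 2 (770), while it called 324 without replicate 3, 933 without replicate 4, 1107 without replicate 5, 1101 without CD4NIKΔ replicate 2 and 1224 without CD4NIKΔ replicate 3. The share of calls that were higher was 54.8%, against 48.4% with RLE factors, 71.6% with upper-quartile factors and 67.2% with column totals, with medians over all genes of 0.14, 0.07, 0.36 and 0.32.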

How the data were processed

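RNA of sorted renal CD4+ T cells was sequenced in 11 libraries, 1 per mouse. The authors deposited estimated counts per gene symbol, which the submitters' processing notes attribute to kallisto after Trimmomatic, with mm10 as the build. The methods of the study name GRCm39, and the version of kallisto and the annotation are not given in the sources used here. All columns of the table were used.

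Values were divided by the column total to give CPM, and log2 was taken after adding 0.5 CPM. Spearman correlations were computed with Python 3.11.15 (numpy 2.4.6, pandas 2.3.3, scipy 1.17.1), and figures were drawn with matplotlib 3.10.9. For tests of genotype the estimated counts were rounded and fitted with edgeR 4.0.16 (R 4.3.3, limma 3.58.1, TMM factors, robust quasi-likelihood), with genotype and the log2 receptor sum as terms and all 11 libraries in 1 fit. Calls needed an FDR under 0.05 and a 2-fold difference. DESeq2 1.42.0 was an alternative. Scripts were tested on simulated data. The p-values measure the spread between the mice sampled. Coordinates and sequences are from GRCm39 with GENCODE annotation, in which 13953 of the 14505 symbols were found.

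The genes named were the 3 of the sum, members of the lists, the 10 of highest and the 10 of lowest rho, the 10 most abundant not following, the 5 of smallest FDR in each direction among those called, and the targeted genes. Some genes under this rule are not reported here. Genes at the limits of the classes and gene families by symbol were chosen after the values were seen. The members and lists were chosen with earlier results of these data known. Alternatives covered the filter, the pseudocount, the limits, the correlation, the scaling, the covariate, the tool and the libraries left out.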

Additional observations from a re-analysis of the deposited data

Results flagged for a closer look

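In 9 of 71 sets of library values examined in groups of 5, the most extreme library labelled CD4IKK1Δ lay farther from its neighbours than Dixon's limit for 5 samples allows. The sets overlap, and many of the genes in them were chosen for their rho with the sum. The number of flags therefore cannot be set against a rate by chance. In replicate 1, the library of lowest receptor sum, mitochondrially encoded genes took 2.75% of counts against 2.08% to 2.25% in the other 4 libraries, and their summed level was 27555 CPM against 20850 to 22506 CPM. These are 1 quantity in different units, so it is counted more than once among the 9. The same library had 398 CPM of Sap18b against 292 to 313 CPM, 2795 CPM of Gpx4 against 2302 to 2392 CPM, and 1119 CPM of Ndfip1 against 1259 to 1314 CPM.

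Replicate 3, the library of highest receptor sum in the group, stood apart in the other 4 sets. Cxcr3 was at 41.0 CPM against 0.0623 to 11.2 CPM, and the regulatory T cell list at 177 CPM against 9.81 to 54.2 CPM. The cell cycle list was at 231 CPM against 111 to 136 CPM, and the interferon-stimulated list at 227 CPM against 24.8 to 83.4 CPM.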

How the results depend on the processing

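No gene that was named and called changed direction under an alternative. Of the values for named genes under an alternative, 53 log2 differences lost their call and 407 did not, and 232 correlations moved by more than 1 SD of the values with each library left out while 440 did not. The calls for CD4NIKΔ against CD4cre were mostly lower in CD4NIKΔ (649 higher, 892 lower) but mostly higher with RLE factors (773 and 661) and by DESeq2 (1106 and 963), and those for CD4IKK1Δ against CD4NIKΔ turned from mostly higher (1043 and 861) to mostly lower (890 and 947 with RLE factors, 1316 and 1473 by DESeq2). The uncalled correlation of the share of the 100 most abundant symbols changed sign (rho 0.13 and −0.60) without the 2 libraries of highest sum. Of the counts of genes and the library measures, 126 values under an alternative stayed within their limits, 38 moved and 1 lost its call. Genes not following numbered 4927 with a filter of 1 count in 1 library, 1570 with 10 counts in all 11 and 1692 with rho limits of 0.7 and 0.2. Opposing genes numbered 281 and 257 by Pearson's r with 0.5 and 0.1 CPM added, 606 with a rho limit of 0.9, 1793 without a limit on pairs and 549 without the 2 libraries farthest from the median sum. Following genes numbered 2147 without a limit on pairs. Leaving out each library in turn gave 766 to 1248 following, 565 to 1355 opposing and 2308 to 3275 not following genes, and 0 to 2 calls for CD4IKK1Δ against CD4cre, 16 to 2276 for CD4NIKΔ against CD4cre and 0 to 2685 for CD4IKK1Δ against CD4NIKΔ.

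Without the covariate edgeR called 134 genes for CD4IKK1Δ against CD4cre and 5294 for CD4IKK1Δ against CD4NIKΔ. With the CD3 sum as covariate it called 693 for CD4IKK1Δ against CD4NIKΔ (326 higher and 367 lower). DESeq2 called 135 genes for CD4IKK1Δ against CD4cre. Among alternatives chosen after seeing the data, leaving out the 2 libraries farthest from the median log2 sum gave 646 following and 1580 opposing genes and a rho of −0.70 for the mitochondrial percentage (adjusted permutation p = 0.0721). DESeq2 without the covariate called 590, 2711 and 5694 genes in the 3 comparisons, and edgeR without both libraries of lowest sum called 0 and 0 for the comparisons with CD4NIKΔ (978 and 770 at an unadjusted p under 0.05). The causes were not tested.

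With a replicate block, 305 genes opposed the sum, and edgeR called 0 and 0 genes in the comparisons with CD4NIKΔ (3731 and 2657 at an unadjusted p under 0.05). The labels do not say whether equal replicate numbers pair the mice. Of 9 pairs of same-numbered libraries 1 correlated over 0.1 (−0.14 to 0.11), and 1 of 9 libraries correlated best with its own number. So few pairs cannot decide whether the numbers are a pairing. At 41 receptor counts, the position of the lowest library on the log2 scale is set by few reads.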

Other observations

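Genes of cell types that the sort was not meant to keep differed in where they peaked. Erythroid genes, of which 7 were measured and none followed (median rho 0.69), summed to 706 CPM in CD4IKK1Δ replicate 3, 2922 CPM in CD4cre replicate 2 and 7452 CPM in CD4NIKΔ replicate 3. B cell genes, with 1 of 4 measured following, rose from 10.8 CPM in the lowest library to 609 CPM in the highest. Of 12 listed neutrophil genes 3 were measured, and S100a8, S100a9, Ly6g, Ngp and Camp were each under 1 CPM in all libraries. Mmp9, a matrix protease also on that list, was at or under 14.9 CPM in 9 libraries and at 92.0 and 93.6 CPM in CD4NIKΔ replicates 2 and 3. Endothelial genes summed to between 95.3 and 245 CPM and had a rho of −0.75 as a sum, although 5 of 8 members had a rho above 0.

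Cell cycle genes, with 4 of 13 following (median rho 0.84), summed to between 111 and 231 CPM in the libraries labelled CD4IKK1Δ, 176 and 220 CPM in CD4cre and 657 and 696 CPM in CD4NIKΔ. The 20 listed ribosomal protein genes rose from 4137 CPM in the lowest to 7725 CPM in the highest library, with 7 following and 2 not following. Over all 81 measured Rpl and Rps symbols, a family chosen after its values were seen, 13 followed, 3 opposed and 11 did not follow (median rho 0.40), and the sum went from 16284 to 20434 CPM.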
